A study of Mus musculus with 12 samples.

Results

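Wild-type mouse embryonic fibroblasts, the connective tissue cells grown from mouse embryos, were examined after 4 h with interleukin-1 beta (IL-1b) at 1 ng/ml. The 2 arrays of these cells were set against the 2 arrays of wild-type fibroblasts left unstimulated for 4 h, so that 4 of the 12 arrays of the series carry the comparison. Of the probe sets with 1 gene symbol, 22676 reached the signal filter, and the one with the highest mean stood for each gene, which gave 12456 genes. The series also holds wild-type cells after 1 h with IL-1b, and fibroblasts carrying a kinase-dead form of the protein kinase IRAK4 after 1 h and 4 h with IL-1b and unstimulated, each with 2 arrays. Both genotypes were thus stimulated with the same dose, and the unstimulated cells of each genotype were grown for 4 h. The title of wild-type unstimulated replicate 1 names no genotype, and it was placed with the wild-type cells by the series design. The design calls the arrays of a group biological replicates without naming animals, embryos or cultures, so what differed between replicates is not known. The p-values set each difference against a spread estimated within all 6 groups of the series, not within the 4 arrays compared alone.

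IL-1b binds the IL-1 receptor, which brings the adaptor MyD88 and the kinases IRAK4 and IRAK1 together at the membrane. The signal runs on through TRAF6 and the kinase TAK1 to NF-kB and to the MAP kinases that act on AP-1. In fibroblasts the pathway is known for chemokines and cytokines that call in white blood cells, for proteases that break down matrix, and for inhibitors that are themselves targets of NF-kB and close the loop.

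The cells carried the marks of fibroblasts on all 4 arrays. The type I collagen gene Col1a1 had signals of 6237 and 5507 with IL-1b and 5666 and 4601 without, and Vim, the gene of the filament protein vimentin, 6649 and 6456 and 6408 and 5489. All 14 fibroblast markers analysed were tested, and 1 was called higher and 1 lower. The marker counts here stand beside 4.66% of all genes called higher and 7.39% called lower. The count was 4 (3 higher) when unstimulated replicate 1 was left out and 1 when 4 h replicate 1 was, and 5 were higher and 1 lower after centring on the median of the genes tested. Many markers of blood cells were dim, but not all. The leukocyte antigen gene Ptprc stood at 9.5 and 12.7 with IL-1b and 9.2 and 2.6 without, below the filter of 25.5 on each array. Of 20 macrophage markers 5 reached the filter on both arrays of each group. The brightest was the lysozyme gene Lyz2, with 114.4 and 96.7 with IL-1b and 98.8 and 97.4 without. Summed over 20 macrophage markers, the signal was 455.0 and 468.8 with IL-1b and 447.1 and 422.7 without, and limma called 0 of the 15 tested (2 at an unadjusted p under 0.05). Of 6 endothelial markers tested, 1 was called, the VEGF receptor gene Flt1 (1464 and 1398 with IL-1b, 333 and 414 without). The defining endothelial genes Pecam1 (7.3 and 2.5 with IL-1b, 16.6 and 1.7 without) and Cdh5 (10.8 and 16.1 with IL-1b, 18.3 and 27.0 without) were near or below the filter. Flt4 was above it on each array (63.5 and 96.0 with IL-1b, 54.7 and 62.7 without), and Eng only without IL-1b (14.9 and 17.5 with, 38.3 and 30.3 without). Of 16 endothelial markers 2 reached the filter on both arrays with IL-1b and 3 without. A change in the number of cells of a type and a change in RNA per cell cannot be told apart in such samples. Replicates correlated at 0.980 (IL-1b 4 h) and 0.979 (unstimulated) across the genes tested. The ratio of 3' to 5' actin probe sets, which reports on RNA integrity, was 2.58 and 2.15 in replicates 1 and 2 with IL-1b, and 2.68 and 2.14 in replicates 1 and 2 without.

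Promoters of the genes that rose most are shown because a sequence bound by NF-kB, the kB motif, recurs close to their start sites. RefSeq windows of 300 bases (250 before the transcription start and 50 from it, assembly GRCm38.p6) were found for 10024 of the 12456 genes and for 19 of the 24 largest rises. Below are the first 8 of those rises, by size, whose window holds GGANNTTCC or GGGNNTTCC on either strand. They read 5′ to 3′ on the gene's strand, with the kB match in capitals.
Cxcl2 (chr5:90903649-90903948, plus strand): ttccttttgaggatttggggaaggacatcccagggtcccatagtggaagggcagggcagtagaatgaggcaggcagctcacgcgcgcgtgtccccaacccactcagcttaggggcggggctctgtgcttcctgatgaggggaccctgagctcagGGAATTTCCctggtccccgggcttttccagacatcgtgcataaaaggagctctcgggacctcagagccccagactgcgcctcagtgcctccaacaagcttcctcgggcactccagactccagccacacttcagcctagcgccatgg
Cxcl1 (chr5:90890995-90891294, plus strand): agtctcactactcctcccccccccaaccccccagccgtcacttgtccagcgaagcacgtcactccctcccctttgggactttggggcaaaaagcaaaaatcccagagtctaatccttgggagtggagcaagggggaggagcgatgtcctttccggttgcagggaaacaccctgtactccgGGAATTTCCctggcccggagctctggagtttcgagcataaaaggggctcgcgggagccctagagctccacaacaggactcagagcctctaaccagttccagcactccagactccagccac
Il6 (chr5:30012864-30013163, plus strand): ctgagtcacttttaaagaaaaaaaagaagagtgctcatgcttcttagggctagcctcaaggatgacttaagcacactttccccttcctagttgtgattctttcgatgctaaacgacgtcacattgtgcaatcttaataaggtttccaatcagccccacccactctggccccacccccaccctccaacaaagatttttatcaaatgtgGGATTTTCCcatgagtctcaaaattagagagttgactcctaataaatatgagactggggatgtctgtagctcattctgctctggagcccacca
Ccl20 (chr1:83116516-83116815, plus strand): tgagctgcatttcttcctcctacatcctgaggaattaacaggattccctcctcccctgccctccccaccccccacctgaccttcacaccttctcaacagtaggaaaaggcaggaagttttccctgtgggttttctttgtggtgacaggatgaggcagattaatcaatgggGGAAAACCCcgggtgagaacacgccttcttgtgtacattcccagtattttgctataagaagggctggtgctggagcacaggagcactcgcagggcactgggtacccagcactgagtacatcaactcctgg
Icam1 (chr9:21015690-21015989, plus strand): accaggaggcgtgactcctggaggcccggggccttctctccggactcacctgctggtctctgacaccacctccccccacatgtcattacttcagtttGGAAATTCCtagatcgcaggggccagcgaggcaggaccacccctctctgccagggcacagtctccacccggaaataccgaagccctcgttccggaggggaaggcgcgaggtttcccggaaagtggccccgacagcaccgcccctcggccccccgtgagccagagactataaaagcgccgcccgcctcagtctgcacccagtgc
Steap4 (chr5:7960222-7960521, plus strand): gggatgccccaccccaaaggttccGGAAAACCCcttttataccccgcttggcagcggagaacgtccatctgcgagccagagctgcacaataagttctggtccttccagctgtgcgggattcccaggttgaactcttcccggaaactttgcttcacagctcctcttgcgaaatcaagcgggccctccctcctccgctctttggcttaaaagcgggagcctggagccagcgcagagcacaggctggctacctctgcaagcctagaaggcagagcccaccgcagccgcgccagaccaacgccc
Cxcl3 (chr5:90785851-90786150, plus strand): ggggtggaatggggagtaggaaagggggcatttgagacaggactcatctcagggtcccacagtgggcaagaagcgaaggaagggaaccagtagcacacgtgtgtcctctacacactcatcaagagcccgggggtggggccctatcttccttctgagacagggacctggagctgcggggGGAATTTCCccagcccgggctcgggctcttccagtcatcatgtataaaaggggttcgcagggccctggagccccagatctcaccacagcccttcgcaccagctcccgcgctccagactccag
Tlr2 (chr3:83841559-83841858, minus strand): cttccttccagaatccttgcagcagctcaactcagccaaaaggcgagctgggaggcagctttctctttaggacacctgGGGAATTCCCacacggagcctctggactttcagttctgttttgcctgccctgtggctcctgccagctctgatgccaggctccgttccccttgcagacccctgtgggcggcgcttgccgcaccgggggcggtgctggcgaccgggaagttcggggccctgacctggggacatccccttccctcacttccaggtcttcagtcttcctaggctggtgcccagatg

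In the promoters of the 3 neutrophil chemokine genes Cxcl2, Cxcl1 and Cxcl3 the match was the same 9 letters, GGAATTTCC, beginning 96, 70 and 72 bases before the start. Il6 carried GGATTTTCC 43 bases before the start, and Icam1 carried GGAAATTCC at 153 bases. In Ccl20 and Steap4 the match lay on the other strand and reads GGAAAACCC, 80 and 226 bases before the start. Tlr2 held 2 overlapping matches in 10 letters, at 172 and 171 bases. A kB match was present in 10 of the 19 windows of the largest rises (52.6%), in 16 of 45 windows of genes called higher by at least 4-fold (35.6%), in 76 of 449 of all genes called higher (16.9%), in 58 of 737 called lower (7.87%) and in 11.7% of all 10024 windows. The AP-1 letters TGANTCA were in 31.1% of the windows of genes called higher by at least 4-fold and in 4.92% of all windows, and the C/EBP letters TTGCNNAA in 33.3% and 8.08%. The interferon response letters GAAANTGAA were in 11.1% and 1.56%, and TATAAA in 26.7% and 7.50%. Matches of different motifs overlapped in at most 2 windows for any pair of them. The 4-fold set had a median of 7 CpG pairs per window and all windows a median of 21, so base composition differs between the sets compared. A match is a run of letters and was not tested as a binding site.

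**Figure D1:**
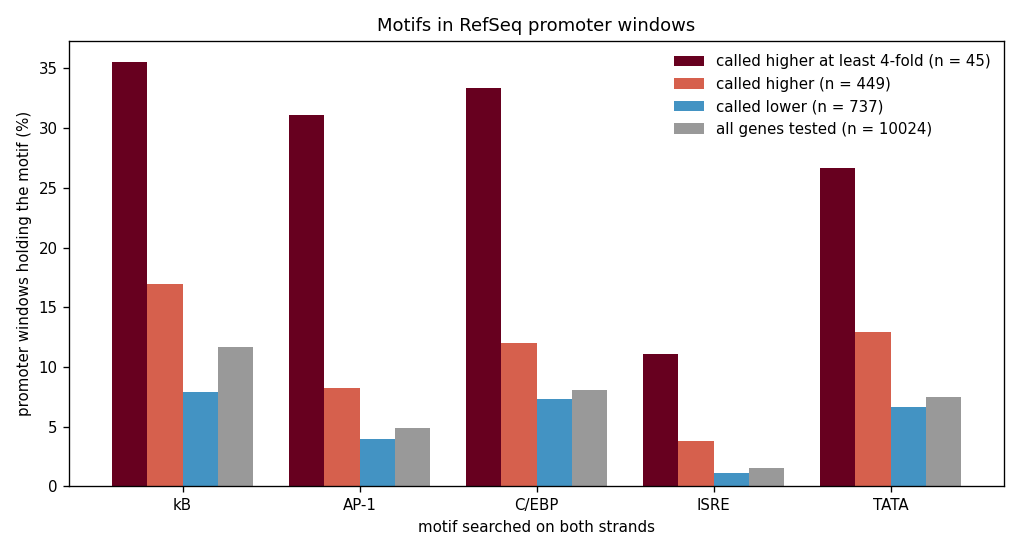
Share of RefSeq promoter windows of 300 bases that hold each motif on either strand, for genes called higher at 4 h by at least 4-fold, all genes called higher, all called lower, and all genes tested (n is the number of windows). Each of the 5 motifs was in a larger share of the windows of the 4-fold rises (35.6% for kB) than of all windows (11.7% for kB).

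The main comparison asked which transcripts differed after 4 h of IL-1b in cells with working IRAK4. A linear model over all 12 arrays (limma) on log2(signal + 8) called 1501 of 12456 genes at an adjusted p under 0.05: 581 higher with IL-1b (4.66% of all genes) and 920 lower (7.39%). Of the genes called higher 195 changed at least 2-fold, 66 at least 4-fold and 8 at least 32-fold, whereas of those called lower 176 changed at least 2-fold, 9 at least 4-fold and 0 at least 8-fold. Genes called higher took 13.2% and 13.3% of the summed signal on the 2 arrays with IL-1b, against 8.19% and 8.55% on the unstimulated arrays. Genes called lower took 4.23% and 4.35% with IL-1b, against 6.69% and 6.67% without. All 581 and all 920 had both stimulated arrays beyond both unstimulated ones, a separation that 15.8% of all genes showed upward and 35.0% downward. The median change of all genes was -0.12 on the log2 scale, and the split between higher and lower calls moved with the scaling of the arrays and with the arrays in the fit. Centring each array on its median gave 587 higher and 472 lower, and centring on the median of the genes tested gave 1193 higher and 433 lower. A fit of only the 4 arrays compared gave 357 higher and 305 lower. Leaving out stimulated replicate 2 made the count 962. List counts below are to be read beside the shares over all genes, 4.66% higher and 7.39% lower. Fold changes below are on the log2(signal + 8) scale with their standard error (2 arrays per group), and adjusted p-values are from limma with the Benjamini-Hochberg method over all 12456 genes. The genes named were preferred for calls that held in every alternative, and all named as risen or fallen in the groups below did so unless stated. The runs of neighbouring genes at the end use the calls of the main fit only.

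**Figure D2:**
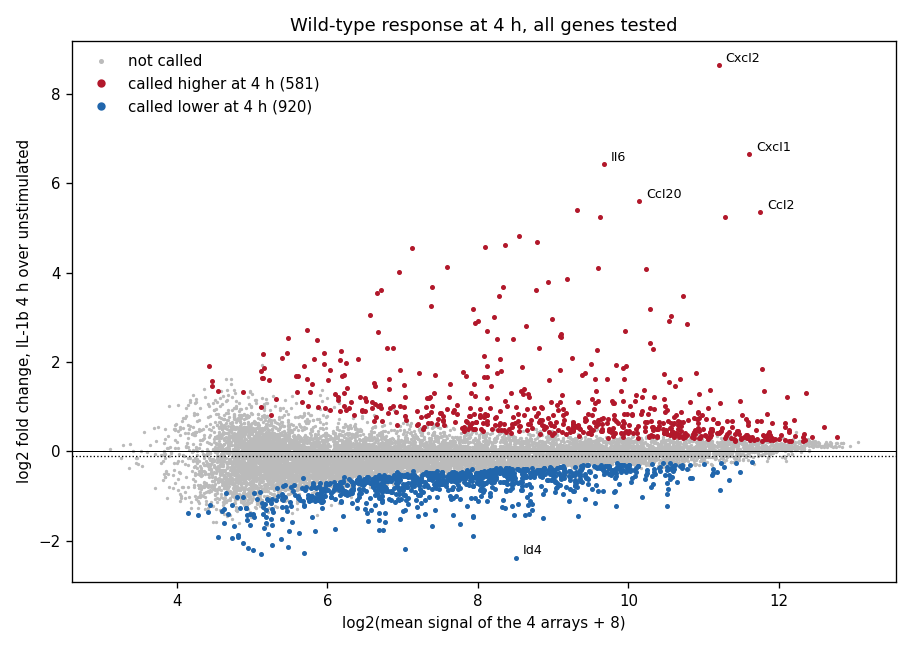
Log2 fold change in wild-type cells at 4 h (IL-1b over unstimulated) against the mean level of the 4 arrays for each of 12456 genes, with called genes in colour and the dotted line at the median change (-0.12). The 581 rises reach 8.65 for Cxcl2, and the 920 falls reach -2.38 for Id4.

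**Figure D3:**
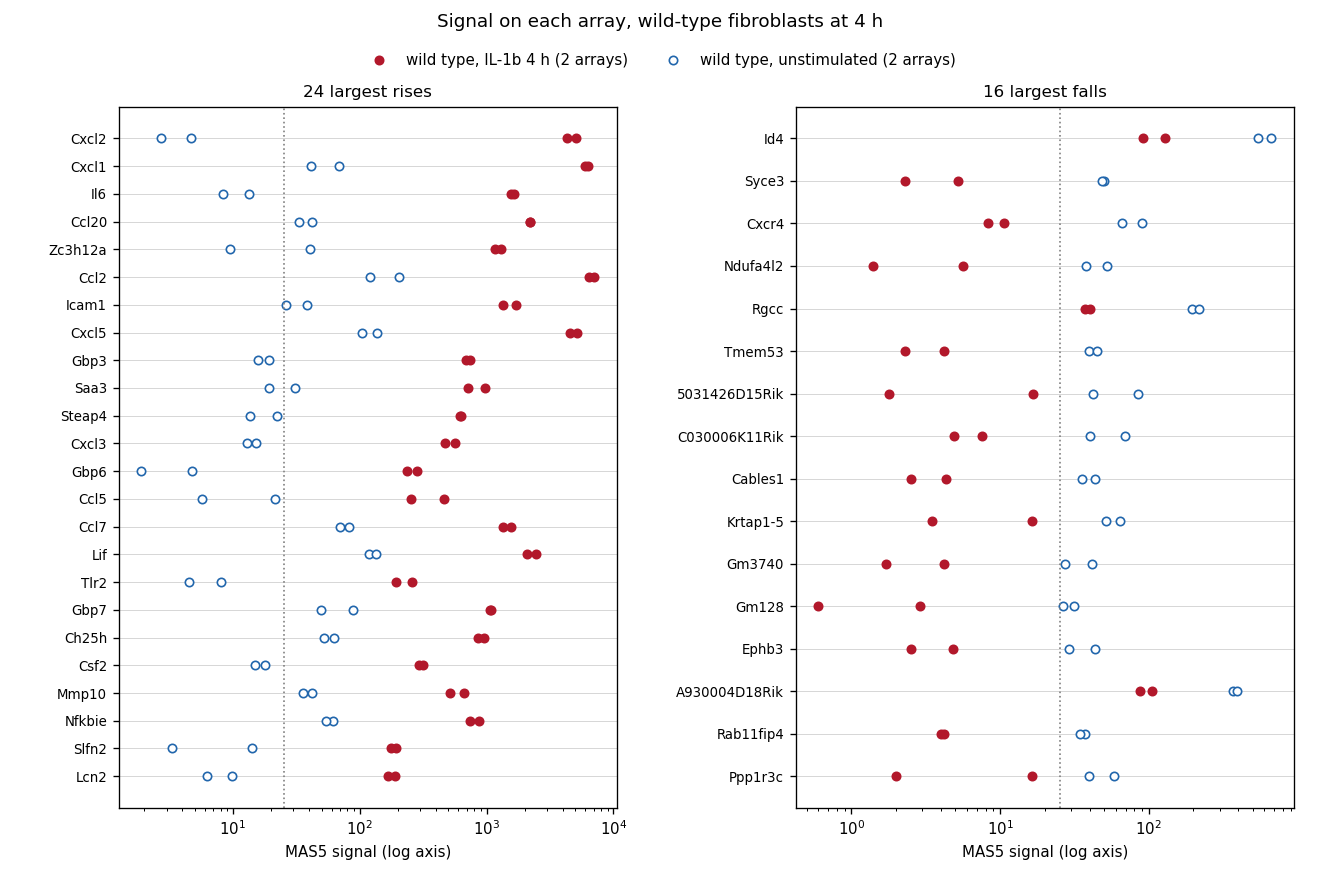
MAS5 signal (log axis) on each of the 2 arrays with IL-1b for 4 h (filled) and the 2 unstimulated arrays (open) of wild-type cells, for the 24 largest rises and 16 largest falls, with the dotted line at the filter of 25.5. Of the rises 11 lay below that line on both unstimulated arrays, and of the falls 13 lay below it on both stimulated arrays.

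Chemokine genes were 8 of the 24 largest rises. Of 6 neutrophil-attracting CXC chemokine genes tested, 4 rose and 2 did not pass, with a list median of 4.91 against -0.12 for all genes. Cxcl2 had signals of 5061 and 4308 on the arrays with IL-1b, against 2.7 and 4.7 on the unstimulated arrays, a change of 8.65 ± 0.16 (adjusted p = 7.6e-16). Cxcl1 had 6314 and 5984 with IL-1b, against 68.5 and 41.0 without (6.65 ± 0.25, adjusted p = 1.19e-11). Both transcripts were dim without stimulation and bright with it, and the groups did not overlap. Cxcl5, whose product acts on the same neutrophil receptor, had 5191 and 4514 with IL-1b, against 105 and 136 without (5.25 ± 0.25, adjusted p = 2.32e-10). Cxcl3 had 469.5 and 567 with IL-1b, against 13.0 and 15.1 without (4.57 ± 0.40, adjusted p = 5.31e-07), below the filter on both unstimulated arrays and far above it on both stimulated ones.

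The CC chemokines, which mainly attract monocytes and lymphocytes, followed the same direction: 6 of 11 tested rose and 5 did not pass (median 2.66). Ccl2, a monocyte attractant, had 7026 and 6412 with IL-1b, against 121 and 203 without (5.35 ± 0.17), and Ccl7, a ligand of the same receptor, had 1337 and 1569.9 with IL-1b, against 70.0 and 82.9 without (4.11 ± 0.16). The stimulated arrays of both genes lay far above the unstimulated ones. Ccl20, which acts through the receptor CCR6, had 2203 and 2211 with IL-1b, against 41.7 and 33.5 without (5.61 ± 0.24, adjusted p = 3.96e-11). Ccl5, a T cell and monocyte attractant, had 459 and 255 with IL-1b, against 21.4 and 5.7 without (4.13 ± 0.37). Its replicates lay farther apart than those of the other CC chemokines named here, but the groups did not overlap. Ccl9 had 922 and 849.8 with IL-1b, against 118 and 96.7 without (2.96 ± 0.18). Of 6 chemokines outside these classes 3 rose: Cxcl16, a membrane-anchored ligand of CXCR6 (171 and 203 with IL-1b, 28.0 and 34.7 without, 2.31 ± 0.25), Cx3cl1, which tethers leukocytes (395 and 412 with IL-1b, 124 and 119 without, 1.67 ± 0.15), and Cxcl10, a T cell attractant (104 and 121 with IL-1b, 34.4 and 13.9 without, 1.98 ± 0.39).

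Cytokines with actions on blood cells rose as well, 5 of 16 tested (median 0.44). Il6, whose product drives the acute phase response, had 1566 and 1658 with IL-1b, against 13.5 and 8.4 without (6.43 ± 0.27, adjusted p = 4.68e-11). Lif, of the same cytokine family, had 2441 and 2093 with IL-1b, against 119 and 133 without (4.08 ± 0.14). Tslp, an epithelial and stromal cytokine that acts on dendritic cells, had 3197 and 2977 with IL-1b, against 433 and 411 without (2.85 ± 0.16). All 3 separated widely, and Lif and Tslp were well above the filter without stimulation. The colony-stimulating factors rose too, Csf2 for granulocytes and macrophages (314 and 294 with IL-1b, 14.9 and 17.8 without, 3.68 ± 0.46) and Csf1 for macrophages (2588 and 2381 with IL-1b, 819 and 775 without, 1.63 ± 0.12). Among 3 TNF family ligands tested, 1 was called, Tnfsf11, which encodes the osteoclast factor RANKL (2175 and 2311 with IL-1b, 217 and 265 without, 3.18 ± 0.21). The count was 2 when wild-type unstimulated replicate 1 or kinase-dead 1 h replicate 1 was left out.

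Of 25 growth factors tested, 7 rose, 2 fell and 16 did not pass (median 0.11), where 4.66% of all genes rose and 7.39% fell, so the falls lay near the share of all genes. Angptl4, an inhibitor of lipoprotein lipase, had 427 and 432 with IL-1b, against 62.9 and 42.1 without (2.88 ± 0.21), and Fgf7, a keratinocyte growth factor made by stroma, had 1635 and 1594 with IL-1b, against 674 and 705 without (1.22 ± 0.11). Vegfc, a growth factor of lymph vessels, had 381 and 364 with IL-1b, against 229.5 and 200.3 without (0.77 ± 0.14). In the opposite direction Fgf5, known for its part in the hair cycle, had 60.7 and 67.6 with IL-1b, against 158 and 195 without (-1.35 ± 0.23). Of 8 ligands of the EGF receptor family 2 rose, among them Ereg, the gene of epiregulin (6505 and 5781 with IL-1b, 2676 and 2635 without, 1.21 ± 0.14).

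Components of the pathway itself were tested as well. Of 13 genes of the IL-1 receptor family and its adaptors 5 rose and 8 did not pass (median 0.06), against 4.66% of all genes called higher. Il1r1, the signalling receptor for IL-1, had 1346 and 1603 with IL-1b, against 391 and 569.8 without (1.62 ± 0.15, adjusted p = 8.58e-07), and Il1rl2, the IL-36 receptor, had 392 and 347 with IL-1b, against 205 and 167 without (0.96 ± 0.19). These 2 kept their call in every alternative, but the other 3 did not: the adaptor gene Myd88 (129 and 148 with IL-1b, 91.5 and 86.7 without, adjusted p = 0.0424), the pseudokinase gene Irak3 (132 and 114 with IL-1b, 73.5 and 73.1 without, adjusted p = 0.0338) and the IL-18 receptor subunit gene Il18rap (76.5 and 52.5 with IL-1b, 4.7 and 11.2 without, adjusted p = 0.0107). Leaving out replicate 1 of either wild-type group gave a count of 2, and leaving out replicate 2 of either gave 3. The Irak4 transcript was not analysed here. Of 27 kinases and partners between TRAF6 and the transcription factors 4 rose and 1 fell (3 calls when wild-type unstimulated replicate 2 or either of the stimulated arrays was left out). The largest was Map3k8, the kinase that starts an ERK branch downstream of NF-kB1 (84.6 and 83.3 with IL-1b, 9.2 and 3.4 without, 2.72 ± 0.31), and Tank, a TRAF-binding regulator, rose by 0.82 ± 0.12. The 4 rises and 1 fall among these 27 stand beside 4.66% of all genes called higher and 7.39% called lower.

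Receptors for other signals rose in a few cases. Tlr2, a sensor of bacterial lipoproteins, had 193 and 256 with IL-1b, against 8.1 and 4.5 without (4.02 ± 0.43, adjusted p = 6.31e-06). It was the 1 innate sensor called of 15 tested, beside 4.66% of all genes called higher. Leaving out wild-type 4 h replicate 1 made the count 4, of which 3 were lower. Of 18 TNF receptors and TRAF proteins 3 rose, among them the death receptor gene Fas (2189.5 and 2021 with IL-1b, 376 and 391 without, 2.43 ± 0.12) and Cd40 (106 and 100.3 with IL-1b, 25.1 and 44.0 without, 1.42 ± 0.25). Of 25 cytokine receptors, JAK and STAT genes 5 rose and 0 fell. Stat5a, a transcription factor that serves cytokine receptors, had 2104 and 2164 with IL-1b, against 432 and 421 without (2.30 ± 0.10, adjusted p = 6.98e-11). Osmr, the oncostatin M receptor gene, had 1828 and 1760.0 with IL-1b, against 716 and 830.4 without (1.21 ± 0.17), and the kinase gene Jak2 had 1709 and 1673 with IL-1b, against 1020.3 and 746 without (0.95 ± 0.14).

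Inhibitors of the pathway were among the clear rises. Of 7 IkB proteins and coregulators 4 rose (median 1.21). Nfkbiz, which encodes the nuclear IkB-zeta, had 3146 and 3072 with IL-1b, against 275 and 272 without (3.47 ± 0.09, adjusted p = 1.17e-13). Nfkbie, for IkB-epsilon, had 867 and 734 with IL-1b, against 61.8 and 54.5 without (3.61 ± 0.21), and Nfkbia, for IkB-alpha, had 5794 and 5186 with IL-1b, against 1768 and 1291 without (1.85 ± 0.11). The 2 replicates of Nfkbiz lay closer together than those of the other 2 genes. Of the Rel-domain subunits 2 of 3 were called, Relb (169 and 144 with IL-1b, 59.5 and 48.9 without, 1.40 ± 0.23) and Rela (196 and 211 with IL-1b, 125 and 137 without, adjusted p = 0.0196). The call of Rela was lost when wild-type unstimulated replicate 1 or either stimulated array was left out, which left 1 of the 3. Of 12 A20 partners and deubiquitinases 2 rose: Tnfaip3, for A20 itself (562 and 564 with IL-1b, 42.9 and 43.8 without, 3.47 ± 0.14), and its partner Tnip1 (204 and 228 with IL-1b, 94.1 and 113 without, 1.01 ± 0.17).

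Some further layers of feedback moved the same way. Of 11 mRNA decay proteins 4 rose. Zc3h12a, for the RNase regnase-1 that cleaves inflammatory mRNAs, had 1161 and 1305 with IL-1b, against 40.5 and 9.5 without (5.41 ± 0.38). Its unstimulated replicates lay on either side of the filter, and leaving out replicate 2 of them gave a change of 4.67. Zfp36l1, a decay factor for AU-rich mRNAs, had 3684 and 3733 with IL-1b, against 2361 and 2539 without (0.60 ± 0.08). Of 17 MAP kinase phosphatases and RAS pathway inhibitors 8 rose and 0 fell (median 0.37). Errfi1, an inhibitor of the EGF receptor, had 7911 and 7047 with IL-1b, against 2976 and 3017 without (1.31 ± 0.10), Spry4, an inhibitor of RAS signalling, had 357 and 312 with IL-1b, against 128 and 135 without (1.30 ± 0.21), and Dusp6, an ERK phosphatase, rose by 0.93 ± 0.16. Of 10 SOCS and PIAS genes 0 rose and 2 fell, beside 4.66% of all genes called higher and 7.39% called lower. Their median change was 0.15, against -0.12 for all genes. The count was 1 when unstimulated replicate 2 or any stimulated array of the wild-type cells was left out.

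Transcription factors of the early response were also called. Of 28 AP-1 and other early response genes 9 were higher at 4 h and 0 lower (median 0.31), and leaving out wild-type 4 h replicate 1 gave 5 calls. Nr4a3, an orphan nuclear receptor gene, had 616 and 572 with IL-1b, against 156 and 153 without (1.89 ± 0.22), and Ier3 had 3066 and 2782 with IL-1b, against 885 and 848 without (1.74 ± 0.10). Of 5 C/EBP genes 1 rose, Cebpd (520.2 and 481 with IL-1b, 109 and 116 without, 2.08 ± 0.19), whose product binds acute phase promoters. Leaving out wild-type unstimulated replicate 2 made the C/EBP count 2, with 1 lower.

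Genes best known from interferon responses formed a separate block. Of 10 guanylate-binding and immunity-related GTPases 5 rose and 5 did not pass (median 1.73). These GTPases act against microbes inside cells. Gbp3 had 737 and 687 with IL-1b, against 15.9 and 19.3 without (4.82 ± 0.24, adjusted p = 4e-10), Gbp6 had 234 and 285 with IL-1b, against 4.8 and 1.9 without (4.56 ± 0.42, adjusted p = 9.6e-07), and Gbp7 had 1077 and 1070.3 with IL-1b, against 49.6 and 89.1 without (3.85 ± 0.20). Gbp2 had 466 and 425 with IL-1b, against 47.0 and 57.8 without (2.91 ± 0.23), and Gbp2b had 714 and 667 with IL-1b, against 84.5 and 99.7 without (2.81 ± 0.20). The stimulated arrays of all 5 lay far above the unstimulated ones. Cross-hybridisation among these similar genes was not tested. Of 20 other interferon-stimulated genes 8 rose and 0 fell (median 0.51), with Dtx3l, a ubiquitin ligase (1067 and 964 with IL-1b, 279 and 336 without, 1.70 ± 0.13), Trim21, a cytosolic antibody receptor (412 and 419.9 with IL-1b, 117 and 136 without, 1.66 ± 0.17), and Xaf1, linked to cell death (112 and 121 with IL-1b, 46.6 and 52.5 without, 1.12 ± 0.19). In antigen presentation 4 of 17 rose (2 when either stimulated array was left out), and Tapbp, for the peptide-loading chaperone tapasin, had 2629.7 and 2523 with IL-1b, against 1418 and 1490.2 without (0.82 ± 0.08).

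Secreted defence proteins included 5 rises among 9 acute phase genes (median 0.98, and 3 when replicate 1 of either group was left out). Saa3, a serum amyloid A made outside the liver, had 972 and 718 with IL-1b, against 19.4 and 31.0 without (4.69 ± 0.39, adjusted p = 2.57e-07). Lcn2, whose product binds bacterial iron carriers, had 190.2 and 168 with IL-1b, against 6.2 and 9.8 without (3.55 ± 0.50, adjusted p = 0.000107). Lcn2 was below the filter on both unstimulated arrays and Saa3 on 1 of them. Of 14 complement and coagulation genes F3, for tissue factor, rose (1635 and 1768 with IL-1b, 717 and 590.1 without, 1.38 ± 0.16) and Masp1, a complement protease, fell (275 and 239 with IL-1b, 454 and 414 without, -0.74 ± 0.14). This 1 rise and 1 fall stand beside 4.66% of all genes called higher and 7.39% called lower.

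Enzymes of lipid mediators, nitrogen metabolism and redox defence moved in small sets. Of 16 prostaglandin and lipid mediator genes 6 rose and 1 fell (median 0.02). Ptges, the inducible prostaglandin E synthase, had 447 and 421 with IL-1b, against 103 and 116 without (1.91 ± 0.17, adjusted p = 5.53e-07), while Hpgd, which inactivates prostaglandins, had 25.1 and 22.0 with IL-1b, against 91.9 and 104 without (-1.75 ± 0.22, adjusted p = 3.12e-05). Ptgir, the prostacyclin receptor gene, rose by 2.06 ± 0.31. Of 12 nitric oxide, arginine and tryptophan genes 3 rose: Gch1, the first enzyme of tetrahydrobiopterin synthesis (317 and 267 with IL-1b, 18.3 and 29.1 without, 3.26 ± 0.35), and Slc7a2, a transporter of arginine (997 and 877 with IL-1b, 145 and 146 without, 2.62 ± 0.15), kept their call in every alternative, and Arg2 (76.3 and 63.6 with IL-1b, 18.4 and 28.1 without, adjusted p = 0.0362) did not.

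Of 26 redox and metal genes 10 rose and 1 fell (median 0.20). The mitochondrial superoxide dismutase gene Sod2 had 1066 and 1218 with IL-1b, against 265 and 308 without (1.97 ± 0.12). The metallothionein genes, whose products bind zinc and copper, had for Mt2 2626 and 2595 with IL-1b, against 299 and 382 without (2.92 ± 0.12), and for Mt1 906 and 778 with IL-1b, against 244 and 224 without (1.81 ± 0.12). Steap4, a metal reductase, had 634 and 615 with IL-1b, against 22.1 and 13.7 without (4.63 ± 0.35, adjusted p = 8.46e-08). Against this direction Slc40a1, for the iron exporter ferroportin, had 34.4 and 46.7 with IL-1b, against 84.2 and 89.9 without (-0.98 ± 0.17).

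Of 21 adhesion molecules 6 rose and 0 fell, and of 30 metalloproteinases and their inhibitors 10 rose and 2 fell. Icam1, which binds leukocyte integrins, had 1705 and 1337 with IL-1b, against 38.2 and 26.2 without (5.25 ± 0.22, adjusted p = 3.96e-11), and Vcam1 had 2501 and 2862 with IL-1b, against 233 and 446 without (3.02 ± 0.21). Selp, for P-selectin, had 138 and 214 with IL-1b, against 36.2 and 21.9 without (2.31 ± 0.28), and Cd44, the hyaluronan receptor, had 6205 and 5495 with IL-1b, against 3458 and 3681 without (0.71 ± 0.08). Selp is known best from platelets and endothelium, and Pecam1 and Cdh5, defining genes of endothelium, had the low signals given above. Flt4, of the same marker list, was above the filter on each array. Among matrix metalloproteinases, Mmp10 had 663 and 518 with IL-1b, against 35.6 and 41.8 without (3.67 ± 0.22), Mmp9 had 527 and 489 with IL-1b, against 95.4 and 71.6 without (2.51 ± 0.25), and the collagenase gene Mmp13 had 1321 and 1202 with IL-1b, against 231 and 285 without (2.26 ± 0.19). Mmp11 fell, with 70.4 and 72.4 with IL-1b, against 127 and 138 without (-0.82 ± 0.16).

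Structural matrix genes gave little that did not depend on scaling. Of 31 collagens and collagen enzymes 1 rose, Col5a3 (434 and 367 with IL-1b, 237 and 187 without, 0.90 ± 0.17), and 30 did not pass (median -0.02). With arrays centred on the median of the genes tested 8 were called higher, and with quantile normalization 1 higher and 3 lower, so no direction is given for this group. Its count was 6 or 5 when unstimulated replicate 1 or 2 was left out, and 2 when either stimulated array was. Of 23 contractile genes 0 rose and 3 fell, but 9 were called higher and 2 lower after centring on the genes tested. Ajuba, a LIM protein gene, kept its fall (683 and 731 with IL-1b, 1144 and 1016 without, -0.60 ± 0.11). The contractile count was 7 or 5 when unstimulated replicate 1 or 2 was left out. Of 10 genes of the hyaluronan matrix 4 rose and 1 fell (3 calls when either stimulated array was left out), and the fall was Cemip, which breaks down hyaluronan (558 and 564 with IL-1b, 1129.9 and 957 without, -0.88 ± 0.10).

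**Figure D4:**
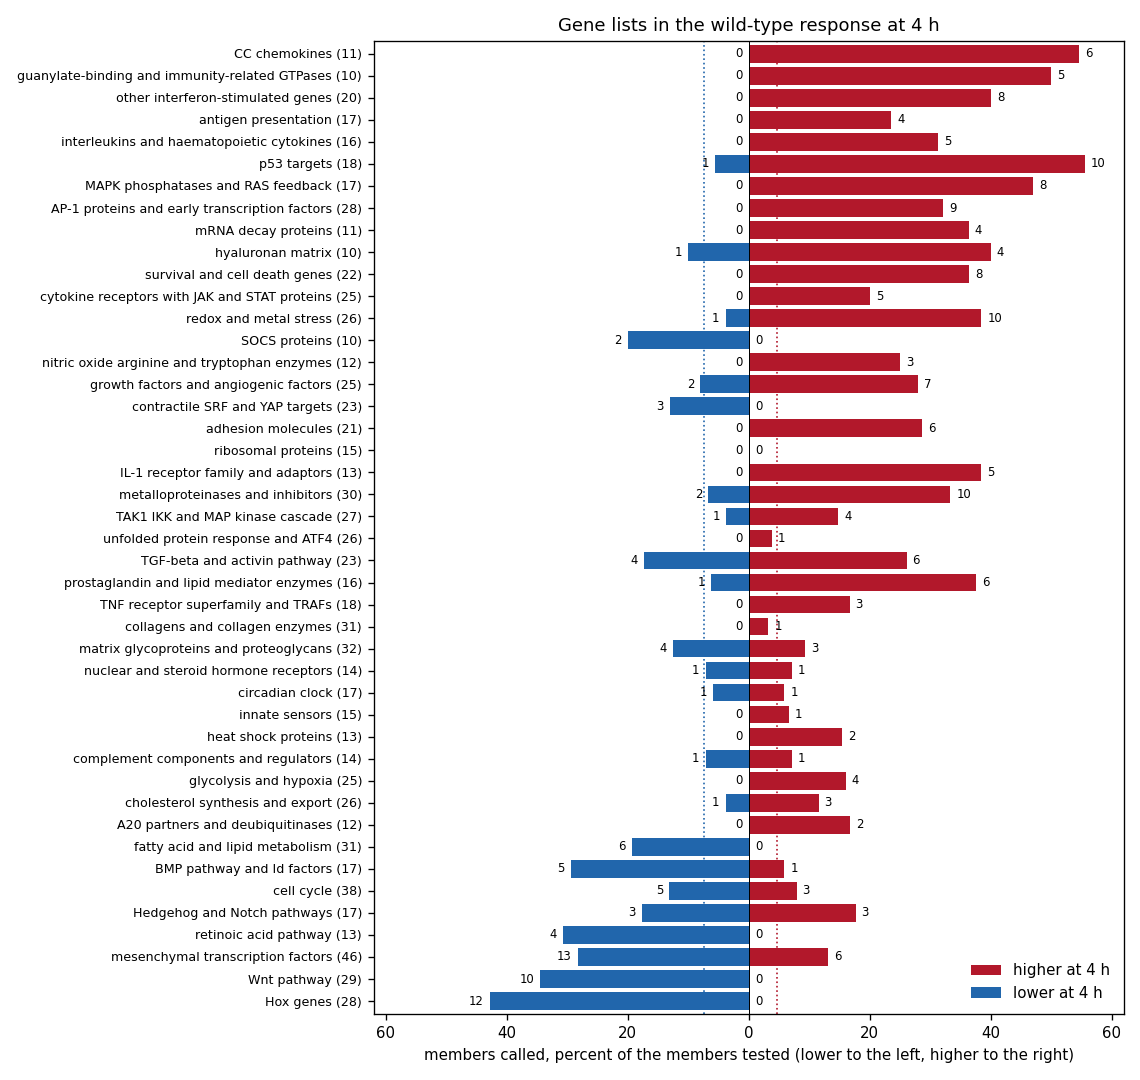
Members called higher (to the right) and lower (to the left) in the wild-type response at 4 h, as percent of the members tested, for gene lists with at least 10 tested members, whose number stands after the name, in order of the list's median change. Dotted lines mark the shares over all genes (4.66% higher, 7.39% lower); chemokine and GTPase lists lie at the top, and the Hox and Wnt lists, with 12 and 10 falls and 0 rises, at the bottom.

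The lists with the most members called lower were of developmental regulators, beside 7.39% of all genes called lower. The lists were chosen with earlier results of these data known, so their counts describe the data and are not a test. Of 28 Hox genes, which encode position along the body axis, 0 rose and 12 fell (median -0.50 against -0.12 for all genes). Hoxa9 had 121 and 123 with IL-1b, against 376 and 330.1 without (-1.47 ± 0.19, adjusted p = 5.05e-05). Hoxa3 had 92.7 and 90.0 with IL-1b, against 245 and 232 without (-1.31 ± 0.13, adjusted p = 2.91e-06), and Hoxa5 had 44.5 and 74.6 with IL-1b, against 135 and 137 without (-1.13 ± 0.18). Both stimulated arrays lay well below both unstimulated ones in each of these genes. Centring gave 0 rises and 9 falls by either median, and leaving out wild-type 4 h replicate 1 gave 5 falls.

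Of 29 genes of the Wnt pathway 0 rose and 10 fell (median -0.43), beside 7.39% of all genes called lower. Among the ligands Wnt9a had 95.6 and 99.6 with IL-1b, against 385 and 259.5 without (-1.62 ± 0.17), and Wnt5a, which also acts without beta-catenin, had 893 and 1028 with IL-1b, against 1537 and 1647 without (-0.73 ± 0.09). Among the receptors Fzd8 had 41.1 and 40.6 with IL-1b, against 151 and 164 without (-1.76 ± 0.17, adjusted p = 1.53e-06), and Fzd2 had 225 and 243 with IL-1b, against 574 and 614 without (-1.31 ± 0.11, adjusted p = 3.64e-07). The 2 ways of centring gave 8 falls (array median) and 6 falls (genes tested), each with 0 rises.

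Of 17 genes of the BMP pathway and the Id factors it induces 1 rose and 5 fell (4 falls, with 0 or 1 rise, on centred arrays, and 3 calls when replicate 1 of either group was left out). Id4, an inhibitor of basic helix-loop-helix factors, had 91.8 and 128 with IL-1b, against 540.1 and 665 without (-2.38 ± 0.14, adjusted p = 2.68e-09), the largest fall of all called genes. Bmp4, a ligand of the pathway, had 71.2 and 71.8 with IL-1b, against 207 and 209 without (-1.44 ± 0.12, adjusted p = 2.36e-07), and Id2 had 426 and 484 with IL-1b, against 684 and 866 without (-0.75 ± 0.13). In the retinoic acid pathway 0 of 13 rose and 4 fell (2 when unstimulated replicate 1 was left out, and 1 rise with 3 falls after centring on the genes tested), led by Dhrs3, a retinal reductase (191 and 220.4 with IL-1b, 532 and 602 without, -1.43 ± 0.14). Of 17 Hedgehog and Notch genes 3 rose and 3 fell (5 and 3 after centring on the genes tested, 1 and 3 with quantile normalization). Ptch1, the Hedgehog receptor and itself a target of that pathway, had 1931 and 1990.4 with IL-1b, against 862 and 876 without (1.17 ± 0.11), while Hey2, a Notch target, had 169.7 and 166 with IL-1b, against 329 and 416 without (-1.11 ± 0.13), and Lfng, which modifies Notch, changed by -1.31 ± 0.22.

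Mesenchymal transcription factors moved both ways, 6 higher and 13 lower of 46 (median -0.36; 8 higher and 9 lower after centring on the genes tested). Dlx2 had 192 and 244 with IL-1b, against 545 and 631 without (-1.41 ± 0.14), and Sox9, the cartilage regulator, had 198 and 206 with IL-1b, against 469 and 497 without (-1.23 ± 0.14). Upward, Tbx3 had 1163 and 1082 with IL-1b, against 347 and 374 without (1.62 ± 0.12, adjusted p = 7.51e-08), and the repressor genes Zeb2 and Zeb1 had changes of 0.83 ± 0.12 and 0.67 ± 0.08. Foxf1, a forkhead factor of visceral mesenchyme, had 564 and 556 with IL-1b, against 246 and 379.9 without (0.85 ± 0.17). In the TGF-beta and activin pathway 6 rose and 4 fell of 23 (5 and 3 after centring on the array median, 10 and 2 on the genes tested, 3 and 6 with quantile normalization, and 5 calls when wild-type 4 h replicate 1 was left out). The ligand gene Tgfb3 had 446 and 471 with IL-1b, against 832 and 769 without (-0.79 ± 0.11), whereas Tgfbr3, for the co-receptor betaglycan, had 473 and 488 with IL-1b, against 147 and 246 without (1.30 ± 0.20).

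Among the 16 largest falls 13 had both stimulated arrays below the filter, so their sizes are bounded by low signal. Those well measured in both groups were Id4, Rgcc, linked to cell cycle control (40.6 and 37.3 with IL-1b, 195 and 218 without, -2.19 ± 0.24), and A930004D18Rik, a transcript with no described role here (87.3 and 105 with IL-1b, 367 and 390.1 without, -1.90 ± 0.15). Cxcr4, a chemokine receptor gene, had 10.7 and 8.3 with IL-1b, against 89.7 and 65.9 without (-2.28 ± 0.28), falling under the filter on both stimulated arrays. Another probe set was tested for many called genes, in a separate fit of all probe sets with its own adjustment. Of 1461 such probe sets 330 were called in the same direction, 1 in the opposite one (for St6galnac2) and 1130 were not called. The change had the same sign in 1293 of them. In that fit 824 of the 22676 probe sets with 1 gene symbol were called higher and 1002 lower.

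The 4 h arrays were then tested against the 1 h arrays of wild-type cells, which asked what the longer time added. Of all genes 1045 (8.39%) were higher at 4 h and 1318 (10.6%) lower, 2363 in all. The total was 1461 when 1 h replicate 1 was left out, 1375 when 1 h replicate 2 was and 1571 when 4 h replicate 2 was. Centring on the array median gave 715 higher and 1641 lower, and centring on the genes tested 1282 and 977. Of the 581 rises of the 4 h response 396 were also higher than at 1 h, 19 were lower and 166 did not pass. Of the 920 falls 547 were lower than at 1 h, 7 higher and 366 did not pass. Both tests use the 4 h arrays, so these counts are not independent of each other.

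Some of the rises were late. Saa3 had 972 and 718 at 4 h and 14.6 and 24.2 at 1 h (4.97 ± 0.39 for 4 h over 1 h, adjusted p = 1.38e-07), and Steap4 had 634 and 615 at 4 h and 6.4 and 27.5 at 1 h (4.81 ± 0.35). Gbp6 had 234 and 285 at 4 h and 4.6 and 16.5 at 1 h (3.92 ± 0.42), and Slc7a2 997 and 877 at 4 h and 123 and 143 at 1 h (2.75 ± 0.15). The 1 h arrays of Saa3, Steap4 and Gbp6 overlapped the unstimulated arrays, and those of Slc7a2 lay just below them. Il6 and Icam1 had begun to rise and went on: Il6 had 1566 and 1658 at 4 h and 132 and 133 at 1 h (3.53 ± 0.27, adjusted p = 1.38e-07), and Icam1 had 1705 and 1337 at 4 h and 125 and 172 at 1 h (3.29 ± 0.22).

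Other genes had signals at 1 h near or above those at 4 h. Cxcl2 had 5061 and 4308 at 4 h and 3885 and 3969 at 1 h (0.25 ± 0.16, adjusted p = 0.323), and Cxcl1 had 6314 and 5984 at 4 h and 5945 and 6228 at 1 h (0.01 ± 0.25, adjusted p = 0.977). The values of both times lay close together, and the test does not show that they are equal. Tnfaip3 had 562 and 564 at 4 h and 1621 and 1867 at 1 h (-1.61 ± 0.14), still above the unstimulated arrays. Of the 28 early response genes 12 were lower at 4 h than at 1 h and 0 higher. Fos had 146 and 158 at 4 h and 2680.0 and 2808 at 1 h (-4.11 ± 0.28, adjusted p = 3.81e-08), with 76.3 and 202 unstimulated, so that the 4 h and unstimulated arrays overlapped. Zfp36, for the decay factor tristetraprolin, had 227 and 230.3 at 4 h and 1990.4 and 1836 at 1 h (-3.02 ± 0.16). Hpgd had 25.1 and 22.0 at 4 h and 252 and 317 at 1 h (-3.21 ± 0.22, adjusted p = 3.81e-08), so that the 4 h arrays lay below the unstimulated arrays and the 1 h arrays above them. Downward, Id4 had 91.8 and 128 at 4 h and 580.2 and 626 at 1 h (-2.39 ± 0.14), and its 1 h arrays lay among the unstimulated ones.

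The last test asked whether the 4 h response of wild-type cells differed from that of kinase-dead cells, each over its own unstimulated arrays. It called 377 genes, 196 with a higher change in wild-type cells (1.57% of all genes) and 181 with a lower one (1.45%). Centring on the array median gave 228 and 84, and centring on the genes tested 349 and 121. The count was 719 when wild-type unstimulated replicate 1 was left out, 227 when kinase-dead unstimulated replicate 2 was, and 216 or 217 when replicate 1 or 2 of the kinase-dead 4 h arrays was. Of the 581 rises 185 had a larger change in wild-type cells, 0 a larger one in kinase-dead cells and 396 did not pass. Of the 920 falls these were 165, 0 and 755. Of the 24 largest rises 22 were called in this test and 13 were themselves called in kinase-dead cells at 4 h. Of the 16 largest falls 8 were called in this test and 0 in kinase-dead cells (4 at an unadjusted p under 0.05 in limma). These counts share the wild-type arrays with the 4 h response and are not independent of it.

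Several marker lists had different signals in the 2 genotypes. The summed signal of the 20 macrophage markers was 455.0 and 468.8 with IL-1b and 447.1 and 422.7 without in wild-type cells, against 1175 and 1170.0 with and 1260 and 1227 without in kinase-dead cells. Of these markers 5 reached the filter on both arrays of each wild-type group, against 11 with IL-1b and 10 without in kinase-dead cells. Ptprc had 9.5 and 12.7 with and 9.2 and 2.6 without IL-1b in wild-type cells, against 37.8 and 36.7 with and 44.1 and 39.7 without in kinase-dead cells. Lyz2, the lysozyme gene of macrophages, had 114 and 96.7 with and 98.8 and 97.4 without in wild-type cells, against 259.7 and 231 with and 297 and 268 without in kinase-dead cells. The integrin gene Itgam stayed below the filter on each of these 8 arrays. All 14 fibroblast markers reached the filter on both arrays of these 4 groups. Their summed signal was 44240.0 and 41514.2 with IL-1b and 42900.0 and 37852.7 without in wild-type cells. In kinase-dead cells it was 37454.2 and 38433.3 with and 39335.8 and 39272.7 without, so the sums overlapped. Signals of Col1a1, Vim, Fn1 and Dcn overlapped too. With IL-1b Pdgfrb was higher in kinase-dead cells (1327.6 and 1527.8) than in wild-type cells (1078.9 and 1065.7). Pdgfra, Lum and S100a4 were lower in kinase-dead cells. The receptor gene Pdgfra had 609.9 and 723 with and 586 and 581 without IL-1b in wild-type cells, against 135 and 149 with and 146 and 118 without in kinase-dead cells. Lum, for the proteoglycan lumican, had 580.2 and 609.7 with and 277 and 448 without in wild-type cells, against 64.3 and 81.9 with and 70.8 and 58.0 without in kinase-dead cells. S100a4, a calcium-binding protein gene, had 2630.1 and 2654 with and 3088 and 2926 without in wild-type cells, against 1083 and 1199.5 with and 1460.1 and 1609 without in kinase-dead cells.

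The summed signal of 17 neural and glial markers was 657.0 and 715.7 with and 732.0 and 747.2 without IL-1b in wild-type cells, against 1045 and 1052 with and 929 and 984 without in kinase-dead cells. Fabp7, a fatty acid binding protein gene of glia, had 34.7 and 37.8 with and 38.5 and 28.8 without in wild-type cells, against 265 and 245 with and 227 and 185 without in kinase-dead cells. The sums of the 9 adipocyte markers ran the other way, with 537.3 and 576.3 with and 458.3 and 505.1 without in wild-type cells, against 165.5 and 246.9 with and 177.9 and 161.7 without in kinase-dead cells. Most of the wild-type sums came from 1 gene, Fabp4. It had 476.4 and 516.3 with and 333.6 and 404.6 without in wild-type cells, against 87.4 and 122.4 with and 78.2 and 73.0 without in kinase-dead cells. In each of these 4 groups it was the only 1 of the 9 to reach the filter on both arrays. In each of these 3 lists of other cell types, the sums of the wild-type arrays did not overlap those of the kinase-dead arrays. Single members did not all follow the sums. In the neural list Sox2 was also higher in kinase-dead cells (43.0 and 39.7 with and 52.1 and 45.1 without in wild-type cells, 118.8 and 130.8 with and 96.8 and 102.3 without in kinase-dead cells). Signals of Map2 and Stmn2 overlapped between the genotypes. The part of these markers in the genotype differences was not tested.

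The size of the difference ranged widely among the top genes. Il6 had 1566 and 1658 with IL-1b and 13.5 and 8.4 without in wild-type cells, against 19.5 and 25.3 with and 3.5 and 13.6 without in kinase-dead cells. The difference of the changes was 5.49 ± 0.39 (adjusted p = 2.91e-07), and the kinase-dead arrays with IL-1b did not reach the filter. Cxcl3 had 469.5 and 567 with and 13.0 and 15.1 without in wild-type cells, against 5.9 and 8.3 with and 8.6 and 5.6 without in kinase-dead cells (4.57 ± 0.56, adjusted p = 0.000168), and the kinase-dead groups overlapped. Cxcl2 had 143 and 129 with IL-1b and 1.1 and 0.7 without in kinase-dead cells, a change of 4.02 ± 0.16 there, against 8.65 ± 0.16 in wild-type cells (difference 4.63 ± 0.23, adjusted p = 5.34e-09). Of the 24 largest rises, the 2 monocyte chemokines differed least. The change of Ccl2 was 5.35 ± 0.17 in wild-type cells and 4.54 ± 0.17 in kinase-dead cells (difference 0.81 ± 0.24, adjusted p = 0.0786), and that of Ccl7 was 4.11 ± 0.16 in wild-type cells and 3.90 ± 0.16 in kinase-dead cells (difference 0.21 ± 0.22, adjusted p = 0.68). Neither difference passed the test, which does not show that they are equal, and the call depended on the setting. That of Ccl2 passed in 5 of 26 alternatives (adjusted p = 0.000614 when wild-type unstimulated replicate 2 was left out, 0.03 with arrays centred on their median) and that of Ccl7 in 1, with a pseudocount of 32 (adjusted p = 0.0303).

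Several rises of wild-type cells had small changes in kinase-dead cells. Slc7a2 had 146 and 189 with IL-1b and 162 and 189.5 without in kinase-dead cells, against the wild-type values given above (difference 2.69 ± 0.22, adjusted p = 1.45e-06). Tbx3 had 261 and 284 with and 298 and 309.8 without there (difference 1.77 ± 0.17, adjusted p = 7.94e-06), and Tslp 155 and 231 with and 141 and 174 without (difference 2.59 ± 0.22, adjusted p = 2.71e-06). In these 3 genes the wild-type arrays with IL-1b lay above all the others given. Gbp2b had a kinase-dead change of 0.01 ± 0.20 (difference 2.80 ± 0.28). Among the falls Id4 had 627 and 652 with and 778 and 762 without in kinase-dead cells (difference -2.12 ± 0.19, adjusted p = 5.16e-06), and Fzd8 had a difference of -1.58 ± 0.24 (adjusted p = 0.000891). Unstimulated signals were apart between the genotypes for some genes. They were 433 and 411 in wild-type cells, against 141 and 174 in kinase-dead cells, for Tslp, and 245 and 232 in wild-type cells, against 838 and 675 in kinase-dead cells, for Hoxa3.

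**Figure D5:**
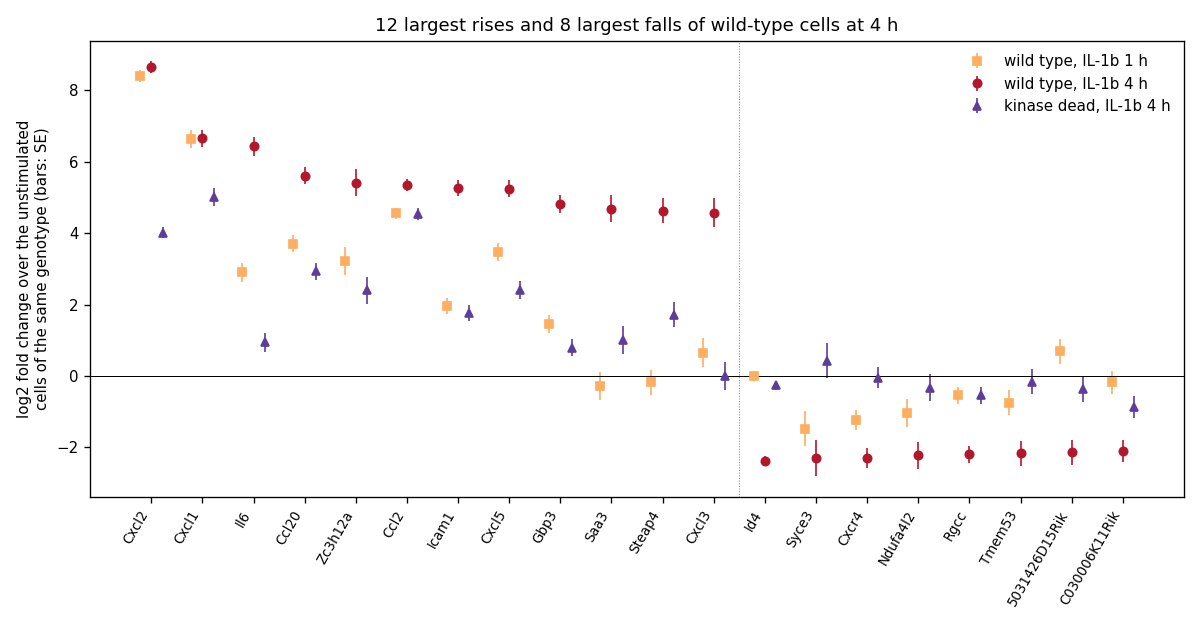
Log2 fold change with its standard error for the 12 largest rises and 8 largest falls of wild-type cells at 4 h, shown for wild-type cells at 1 h (squares) and 4 h (circles) and kinase-dead cells at 4 h (triangles), each over the unstimulated cells of the same genotype. Cxcl2, Cxcl1 and Ccl2 are high in all 3 series, Saa3 and Steap4 rise at 4 h but not at 1 h in wild-type cells, and Id4 falls at 4 h in wild-type cells (-2.38).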

How the data were processed

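Mouse Genome 430 2.0 arrays held amplified RNA of mouse embryonic fibroblasts, 1 sample an array. The deposited values are signal intensities on a linear scale, 1 per probe set, made with MAS5 per the submitters' processing notes; the sources used here do not give its version. The trimmed mean (2% from each end) is 150 on every array. Of 45101 probe sets, 34945 have 1 gene symbol in the platform annotation, 932 several and 9160 none, and 64 are controls. Samples were grouped by title and series design.

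Signals were analysed as log2(signal + 8). A probe set had to reach 25.5 (the median of all values) on 2 arrays or more, and the one with the highest mean stood for its gene. Group means of all 12 arrays (6 groups, 6 residual degrees of freedom) were fitted with limma 3.58.1 in R 4.3.3 (lmFit, eBayes with a variance trend, two-sided, Benjamini-Hochberg within each comparison, called under 0.05). The fit was tested on simulated data. No further normalization was applied in this fit. Figures used matplotlib 3.10.9.

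The gene set, the gene lists and the rule for named genes were chosen with earlier results of these data known. The rule takes the 24 largest rises and 16 largest falls, up to 5 called members of each list and direction, and all members of 3 pathway lists; for the other tests, the 12 largest rises and 8 largest falls and the 6 largest called differences each way. Some values outside it were chosen after they were seen: those of Slc7a2, Tnfaip3, Tbx3, Tslp, Gbp2b, Fzd8 and Hoxa3 in the paragraphs on time and genotype, and those of single cell type markers. Genes with calls that held in every alternative were preferred, so those named look steadier than the rule's set: of its 238 called genes, 138 held in every alternative. Alternatives covered the pseudocount, the filter, scaling, the probe set chosen, the variance model, the arrays in the fit, a replicate block and leaving out each array. Same-numbered arrays did not deviate together (correlations of -0.05 to 0.10 over 15 pairs of groups), so numbers were not taken as pairs. Signal over background limits what can be said of dim probe sets.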

Additional observations from a re-analysis of the deposited data

Results flagged for a closer look

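The 4 h response differed between the genotypes by the test of the difference itself in 11 of the 12 largest rises. The difference, wild type minus kinase dead on the log2 scale, was 4.63 for Cxcl2, 1.64 for Cxcl1, 5.49 for Il6, 2.67 for Ccl20, 3.01 for Zc3h12a, 3.48 for Icam1, 2.84 for Cxcl5, 4.02 for Gbp3, 3.67 for Saa3, 2.91 for Steap4 and 4.57 for Cxcl3. Among the 8 largest falls it was called in 5, with -2.12 for Id4, -2.73 for Syce3, -2.24 for Cxcr4, -1.66 for Rgcc and -2.01 for Tmem53. Cxcl2, Il6, Ccl20, Icam1, Gbp3, Saa3, Cxcl3, Id4 and Cxcr4 kept this call in all 26 alternatives. Syce3 lost it in 16 of 25, Tmem53 in 11 of 25, Cxcl1 in 5, Rgcc in 3, and Zc3h12a, Cxcl5 and Steap4 in 1 each. Syce3, Tmem53 and Cxcr4 were below the filter on both wild-type arrays with IL-1b, so the sizes of their differences are limited by dim signal.

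Probe sets with no listed gene, which no comparison above uses, also changed at 4 h. They were tested in the separate fit of all probe sets, with its own adjustment. In that fit 824 of the 22676 probe sets with a single gene symbol were called higher and 1002 lower. Of the 3794 with no listed gene, 97 were called higher and 77 lower, a smaller share in each direction. The largest rise was of probe set 1452418_at, with 2496 and 2474 with IL-1b, against 173.0 and 238.8 without (3.56 ± 0.14), and the largest fall measured above the filter in both groups was of 1438441_at, with 59.9 and 61.6 with IL-1b, against 244.6 and 362.9 without (-2.15 ± 0.17).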

How the results depend on the processing

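The wild-type 4 h count of 1501 was 923 with array weights, 662 (357 higher and 305 lower) with only the groups compared and 959 with only the wild-type arrays in the fit, and 962 to 1553 when 1 array was left out; the other alternatives gave 1012 to 1917, the highest with every probe set tested. The count against 1 h (2363) ranged from 1375 to 2764 when 1 array was left out. Higher and lower calls there were 715 and 1641 with arrays centred on their median and 1282 and 977 centred on the genes tested, a setting chosen after seeing the data, against 1045 and 1318. The genotype difference (377) was 156 without a variance trend and 216 to 719 when 1 array was left out. Of 238 called genes named by the rule, 138 kept their call in every alternative and 155 in every fit that left out 1 array. The change of Tnfrsf1b turned to -0.26 with the mean over its probe sets. Array numbers were not taken as pairs, since same-numbered arrays did not deviate together over the genes. In the 2 groups compared, the actin ratio did go with the number: 2.58 and 2.68 in replicate 1, 2.15 and 2.14 in replicate 2. A batch shared by number was not tested. With a replicate block the counts were 1483, 2336 and 369. In wild-type cells at 4 h, 40 genes called higher were below the filter on both unstimulated arrays and above it on both stimulated ones, and 62 called lower were the reverse, so their sizes are limited by dim signal.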

Other observations

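Of 18 targets of the tumour suppressor p53 in wild-type cells at 4 h, 10 were higher and 1 lower (4.66% and 7.39% over all genes), with a median of 0.38. Beside Fas, given above, Btg2, an antiproliferative gene, had 615 and 518 with IL-1b, against 243 and 235 without (1.21 ± 0.13), Plk2, a polo-like kinase, had 1004 and 997 with IL-1b, against 402 and 487 without (1.16 ± 0.13), and Gadd45a, a DNA damage response gene, had 1298 and 1395 with IL-1b, against 722 and 772 without (0.84 ± 0.10). Sesn1 was the 1 lower (-0.68 ± 0.12). Of 22 survival and cell death genes 8 rose and 0 fell: Casp4, an inflammatory caspase, had 427 and 437 with IL-1b, against 44.2 and 36.7 without (3.19 ± 0.24), Bid, a pro-apoptotic BCL2 relative, had 504 and 468 with IL-1b, against 148 and 121 without (1.80 ± 0.15), and Birc3, an inhibitor of apoptosis and NF-kB target, had 339 and 377 with IL-1b, against 122 and 121 without (adjusted p = 3.42e-05). Genes known to promote and to block cell death were both among the rises.

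Of 38 cell cycle genes 3 rose and 5 fell (5 calls when wild-type 4 h replicate 1 was left out), with Cdk6 at 1.00 ± 0.12, Cdc25b at -0.92 ± 0.16 and Mcm2 at -0.87 ± 0.17. For this list and the others of this paragraph, the shares over all genes were 4.66% higher and 7.39% lower. Of 31 genes of fatty acid metabolism 0 rose and 6 fell, and Plin2, which coats lipid droplets, had 166 and 214 with IL-1b, against 378 and 355 without (-0.93 ± 0.13). After centring on the genes tested 3 rose and 6 fell. Of 25 glycolysis and hypoxia genes 4 rose, among them Hk2, a hexokinase (1412 and 1307 with IL-1b, 545 and 516 without, 1.34 ± 0.14), and Hif1a (0.54 ± 0.09). Of 26 cholesterol genes 3 rose and 1 fell (7 calls when wild-type unstimulated replicate 2 was left out). Ch25h, which makes the signalling sterol 25-hydroxycholesterol, had 958 and 854 with IL-1b, against 52.7 and 63.1 without (3.80 ± 0.21), and Abcg1, a cholesterol exporter, rose by 1.21 ± 0.24. Nr3c2, the mineralocorticoid receptor gene, had 91.1 and 126 with IL-1b, against 20.3 and 19.6 without (2.04 ± 0.30), and the clock gene Dbp had 33.4 and 37.7 with IL-1b, against 71.6 and 90.6 without (-1.03 ± 0.20). Of 26 unfolded protein response genes 1 was called (2 when wild-type unstimulated replicate 1 or 4 h replicate 2 was left out) and of 15 ribosomal protein genes 0 in limma (3 at an unadjusted p under 0.05, and 4 called when unstimulated replicate 1 was left out), and 6 and 4 were called higher after centring on the genes tested.

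Some called genes were neighbours among the genes tested on a chromosome. Runs of at least 3 rises held Gbp7, Gbp3, Gbp2b and Gbp2 on chromosome 3, Cxcl1, Cxcl2, Mthfd2l and Ereg on chromosome 5, Ccl2, Ccl7 and Ccl11 on chromosome 11, Mmp13, Mmp3 and Mmp10 on chromosome 9, and Map4k4, Il1r1, Il1rl2 and Il18rap on chromosome 1. Further runs of 3 rises were Taf15, Ccl5 and Ccl9 on chromosome 11, Hif1a, Snapc1 and Rhoj on chromosome 12, Cd69, Olr1 and Gabarapl1 on chromosome 6, and Ifitm2, Ifitm1 and Ifitm3 on chromosome 7. There were 6 runs of 3 falls, among them Tmem19, Thap2 and Zfc3h1 on chromosome 10 and Mcm2, Tpra1 and Plxna1 on chromosome 6. With 4.66% of all genes called higher and 7.39% lower, some runs arise without any link between neighbours. Whether there were more runs than that was not tested. Some of these runs are gene families and others are not. The runs use the calls of the main fit, and their members were not picked for calls that held in every alternative. Ifitm1 lost its call with array weights and with only the groups compared in the fit.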
